A study of Mus musculus with 12 samples.

Results

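The alpha-defensins examined here are 10 genes of the antimicrobial peptide family made by Paneth cells of the small intestine, measured in medullary thymic epithelial cells (mTECs). They are all genes whose symbol is Defa followed by a number among the probe sets that the platform annotation assigns to 1 gene, namely Defa21, Defa22, Defa24, Defa26, Defa33, Defa34, Defa35, Defa39, Defa40 and Defa41, out of 22154 genes with such a probe set. Among several probe sets of a gene, 1 is chosen by its mean brightness over the 12 arrays, but each of the 10 genes had a single probe set of its own, so no measured value decided that step. The family was taken up with earlier results of these arrays known, in which Defa21 and Defa22 stood out for Aire, so the Aire values below are not independent evidence for the family.

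Gene expression was measured with single-channel Affymetrix mouse gene arrays in mTECs, stromal cells of the thymus that transcribe many genes of peripheral tissues, from C57BL/6 mice aged 4 weeks. Cells lacking CD45 and low in Ly51 that bound Epcam antibody and UEA were sorted and split by MHC class II into a high (mTEChi) and a low (mTEClo) fraction. The mTEChi groups were Aire-/-, Aire+/+, Brg1-/- and Brg1+/+ with 2 arrays each, and the mTEClo groups had the same 4 genotypes with 1 array each, 12 arrays in all. Aire drives the transcription of tissue antigens in mTECs, and Brg1, encoded by Smarca4, is an ATPase of SWI/SNF chromatin remodelling complexes. The sources used here do not say how the alleles were made, in which cells Brg1 was deleted or whether replicates were separate mice or pools. The p-values therefore reflect the spread between these arrays alone, and that spread may be technical. Values are log2 intensities. A reading of 1 probe set is set only against the same probe set on other arrays, because the brightness of different probe sets is not comparable. In sorted bulk samples, fewer expressing cells and less RNA per cell cannot be told apart.

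Alpha-defensins are small cationic peptides held together by disulphide bonds. They are made as precursors, stored in secretory granules and released into the crypts of the small intestine, where they kill bacteria. In mouse Paneth cells the metalloprotease Mmp7 cleaves the precursors, and Wnt signalling through TCF factors is known to drive alpha-defensin genes. In mTECs, genes of this kind are read out as self-antigens of a peripheral tissue. The genes are close copies of one another and lie in 1 cluster on chromosome 8, where the RefSeq annotation (assembly GRCm38.p6) lists 28 numbered Defa genes, all 10 members among them. Along the chromosome the members follow in the order Defa21, Defa35, Defa22, Defa41, Defa40, Defa33, Defa26, Defa34, Defa39 and Defa24, with other alpha-defensins in between, and Defa34, Defa39 and Defa24 are adjacent numbered genes. RefSeq lists Defa39 among the cryptdin-related sequences under older names (CRS1C). The roles of single members within the family are not separated here.

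The RefSeq promoter table (GRCm38.p6) held 4 of the 10 members, Defa21, Defa22, Defa35 and Defa41. Their 250 bases upstream of the annotated start are shown because these genes moved together on the arrays and because they show how closely the copies resemble each other. Capitals mark matches to TATAAA, the TATA box, and to ATCAAAG, the core that TCF and LEF factors of the Wnt pathway bind. Both strands were searched, and the motifs do not overlap. The windows, 5′ to 3′ on the plus strand, were chr8:21025295-21025544 for Defa21, chr8:21162027-21162276 for Defa22, chr8:21064788-21065037 for Defa35 and chr8:21201354-21201603 for Defa41.
Defa21 and Defa22: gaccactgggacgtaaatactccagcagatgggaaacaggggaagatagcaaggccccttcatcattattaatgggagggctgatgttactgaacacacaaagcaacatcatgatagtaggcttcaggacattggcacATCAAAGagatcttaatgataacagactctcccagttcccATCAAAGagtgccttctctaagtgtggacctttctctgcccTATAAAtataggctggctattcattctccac
Defa35: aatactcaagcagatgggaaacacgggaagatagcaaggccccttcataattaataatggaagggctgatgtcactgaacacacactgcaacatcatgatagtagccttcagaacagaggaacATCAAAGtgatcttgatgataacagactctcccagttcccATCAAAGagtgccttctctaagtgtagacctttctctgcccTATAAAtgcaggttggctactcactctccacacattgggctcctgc
Defa41: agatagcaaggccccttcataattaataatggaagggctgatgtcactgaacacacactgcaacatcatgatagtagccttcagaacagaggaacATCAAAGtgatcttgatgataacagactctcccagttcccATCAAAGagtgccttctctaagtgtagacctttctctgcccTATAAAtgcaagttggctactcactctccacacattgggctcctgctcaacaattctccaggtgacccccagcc

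The Defa21 and Defa22 windows were the same in all 250 bases. Defa35 and Defa41 shared 221 of 222 aligned bases (99.6% identity), and Defa21 and Defa35 shared 214 of 235 (91.1%). Each of the 4 windows held 1 TATAAA and 2 copies of ATCAAAG. In Defa21 and Defa22 the TATA box began 31 bases upstream of the start and the ATCAAAG copies 112 and 72 bases upstream. In Defa35 the same motifs began at 46, 127 and 87 bases, and in Defa41, whose start is annotated further downstream, at 74, 155 and 115 bases. Of 32851 promoter windows of 250 bases in the table, 12.4% held TATAAA and 3.21% held ATCAAAG on either strand, and 0.0822% held ATCAAAG at least 2 times. Among the 16 windows of numbered alpha-defensins in the table, 15 held TATAAA and 13 held ATCAAAG, 9 of them 2 copies. These windows are copies of one another and not independent observations, and a match to letters does not show that a factor binds.

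The arrays were comparable in scale, with array medians between 5.07 and 5.32. The Aire probe set read 9.01 and 9.73 in mTEChi labelled Aire-/-, against 8.04 and 8.80 in Aire+/+ mTEChi, and Smarca4 read 5.88 and 5.44 in Brg1-/- mTEChi, against 6.13 and 6.89 in Brg1+/+ mTEChi. Neither difference passed the test, and where the probes lie relative to the deleted part of either gene is not known here, so these readings check no genotype label and groups are those the labels name. For the sort by MHC class II, H2-Aa, a class II alpha chain gene, read 11.07 to 12.11 in wild-type mTEChi, against 10.83 and 10.31 in wild-type mTEClo. That difference did not pass (1.00, SE 0.400, limma adjusted p = 0.345). Of 9 measured mTEC genes, the costimulatory genes Cd80, Cd86 and Cd40 were higher in wild-type mTEChi (3 of 9 passed, beside 1.93% of all genes called higher). Krt14 (-0.90) and Epcam (-0.45) read lower there without passing.

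The first comparison asked which alpha-defensins depended on Aire in mTEChi. In mTEChi labelled Aire-/- 6 of the 10 genes fell, by 2.18 to 7.92 on the log2 scale, beside 0.772% of all genes called lower, and 3 more read lower on both knockout arrays without passing the test. The remaining gene, Defa34, differed by 0.08. Defa21 read 4.21 and 3.78 in Aire-/- mTEChi, against 11.69 and 12.13 in Aire+/+ mTEChi (-7.92, SE 0.286, limma adjusted p = 9.56e-05), which is a 241-fold drop in intensity. Defa22 read 4.19 and 3.79 in Aire-/- mTEChi, against 11.40 and 11.81 in Aire+/+ mTEChi (-7.62, SE 0.267, adjusted p = 9.56e-05). Both genes therefore dropped below the array medians in both knockout arrays, where background limits how low a reading can go. Defa24 read 5.30 and 4.86 in Aire-/- mTEChi, against 10.61 and 10.23 in Aire+/+ mTEChi (-5.34, SE 0.443, adjusted p = 0.00291).

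Defa39, of the cryptdin-related sequences, read 6.73 and 5.87 in Aire-/- mTEChi, against 10.87 and 10.32 in Aire+/+ mTEChi (-4.30, SE 0.589, limma adjusted p = 0.0240). Defa41 read 4.13 and 3.79 in Aire-/- mTEChi, against 7.79 and 7.85 in Aire+/+ mTEChi (-3.86, SE 0.400, adjusted p = 0.00708). Defa35, whose upstream window matched that of Defa41 in 221 of 222 aligned bases, read 6.43 and 6.58 in Aire-/- mTEChi, against 8.61 and 8.76 in Aire+/+ mTEChi (-2.18, SE 0.310, adjusted p = 0.0283). In each of these genes the knockout arrays lay well apart from the wild-type arrays.

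Among the 3 genes that read lower without passing, Defa33 and Defa26 had the largest standard errors of the 10. Defa33 read 4.21 and 3.29 in Aire-/- mTEChi, against 8.36 and 6.50 in Aire+/+ mTEChi (-3.68, SE 0.862, limma adjusted p = 0.192). Defa26 read 5.34 and 5.52 in Aire-/- mTEChi, against 8.89 and 7.40 in Aire+/+ mTEChi (-2.72, SE 0.642, adjusted p = 0.197). Defa40 read 5.85 and 5.80 in Aire-/- mTEChi, against 7.86 and 6.62 in Aire+/+ mTEChi (-1.42, SE 0.456, adjusted p = 0.524). In all 3 the first wild-type array was the higher, by 1.86, 1.49 and 1.24. Defa34 stood apart from the family. It read 8.09 and 7.77 in Aire-/- mTEChi, against 7.96 and 7.74 in Aire+/+ mTEChi (0.08, SE 0.347, limma adjusted p = 1), and the arrays overlapped. Its probe set lay between 7.14 and 8.11 on all 12 arrays, and whether it responds to the transcript was not tested.

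Over the 10 members the median difference was -3.77, beside 0.06 over all 22154 genes. None of the 10 was called higher, beside 0.0226% of all genes. Both knockout arrays lay below both wild-type arrays in 9 of 10 members, beside 11.6% of all genes. Between arrays of the same number, 9 members were at least 2-fold lower on the arrays numbered 1, beside 3.99% of all genes, and 8 on those numbered 2, beside 4.02%. The count of 6 rested on few arrays. It was 3 (Defa21, Defa22 and Defa24) without Aire+/+ mTEChi replicate 1, without Aire+/+ mTEChi replicate 2 and without Aire-/- mTEChi replicate 2. It was 4, with Defa41 added, without Aire-/- mTEChi replicate 1, and the call for Defa39 was also lost without either Brg1-/- mTEChi array (adjusted p = 0.0551).

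**Figure D1:**
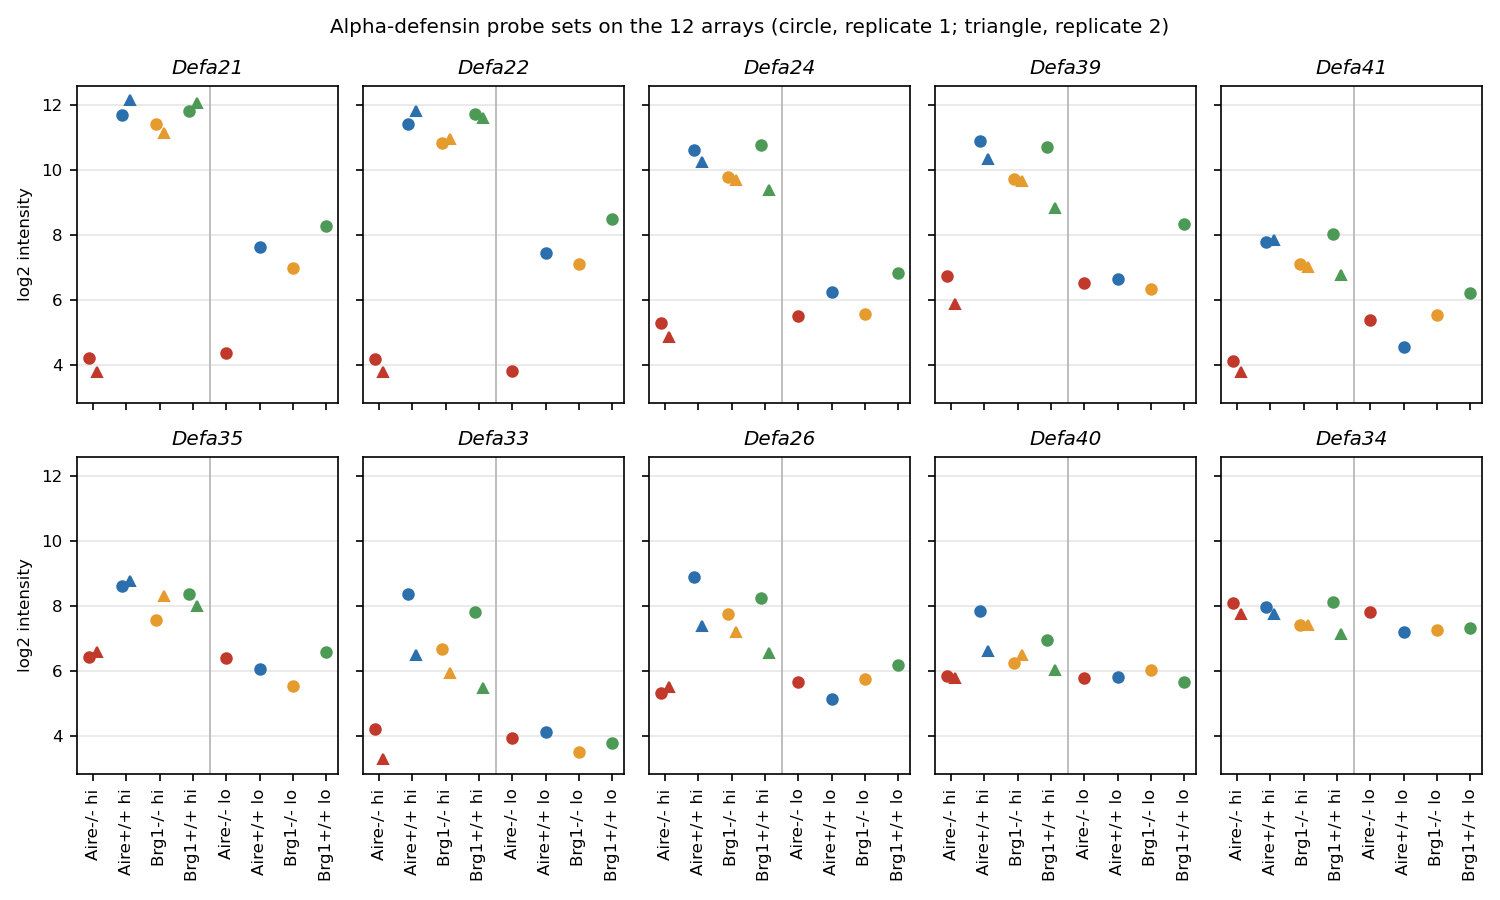
Log2 intensity of the 10 alpha-defensin probe sets (panels) on the 12 arrays, grouped along the x axis by genotype and cell type, each point 1 array. Defa21 and Defa22 read between 3.78 and 4.21 in Aire-/- mTEChi and above 10.8 in the other 3 mTEChi groups, while Defa34 stays between 7.14 and 8.11 on all 12 arrays.

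A further 9 probe sets carry the symbols of several alpha-defensins at once and were outside the rule. They name 12 genes, of which Defa33 is also a member and 11 (Defa2, Defa3, Defa17, Defa20, Defa23, Defa25, Defa27, Defa28, Defa30, Defa31 and Defa32) are measured only in this shared form. When each of 33732 probe sets was tested on its own, an alternative added after the data were seen, 7 of the 9 were lower in Aire-/- mTEChi, beside 0.637% of all probe sets. The largest fall was in the probe set for Defa17, Defa2 and Defa3 (ID 17499792), which read 4.94 and 4.19 in Aire-/- mTEChi, against 11.42 and 10.84 in Aire+/+ mTEChi (-6.57, SE 0.478, limma adjusted p = 0.00273). The probe set for Defa33, Defa32 and Defa20 read 3.80 and 3.84 in Aire-/- mTEChi, against 9.07 and 8.58 in Aire+/+ mTEChi (-5.0, SE 0.385, adjusted p = 0.00299), so the reading shared by these 3 genes passed where that of Defa33 alone did not.

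The other shared probe sets that fell did so by 4.31 to 4.76. The exceptions were the probe set for Defa27, Defa2 and Defa30 (-2.23, adjusted p = 0.218) and that for Defa25 and Defa27, which read 5.99 and 5.92 in Aire-/- mTEChi, against 6.95 and 6.25 in Aire+/+ mTEChi (-0.65, adjusted p = 1). Another probe set with the same pair of symbols plus Defa28 fell by 4.46 (adjusted p = 0.0138), so probe sets that share symbols did not all read alike. Because members are near copies, any probe set may hybridise to transcripts of several of them. The probe sequences were not analysed here.

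**Figure D2:**
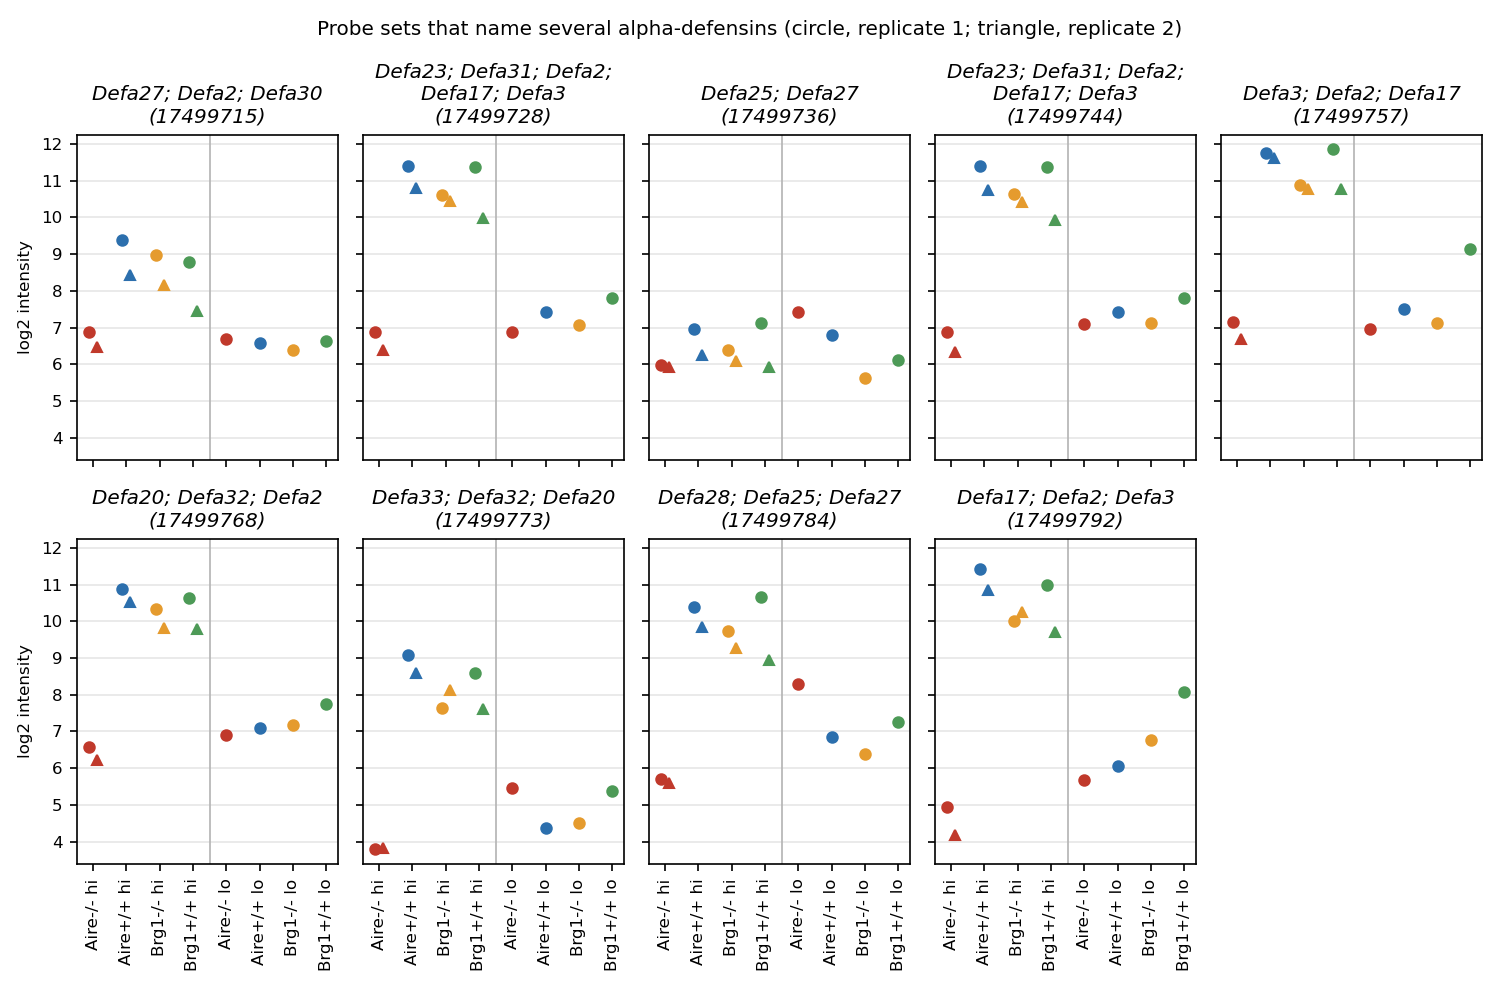
Log2 intensity on the 12 arrays of the 9 probe sets that name several alpha-defensins (panels, with symbols and probe set ID), grouped along the x axis by genotype and cell type, each point 1 array. In 8 of the 9 panels the 2 Aire-/- mTEChi points lie below all points of the other mTEChi groups. In the panel for Defa25 and Defa27 they overlap the Brg1+/+ mTEChi points.

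The second comparison set mTEChi against mTEClo of the wild types, averaging the Aire and Brg1 lines. Of the 10 alpha-defensins 6 were higher in mTEChi, the same 6 that fell without Aire, by 2.11 to 3.96 on the log2 scale, beside 1.93% of all genes. Defa21 read 11.69, 12.13, 11.80 and 12.04 in wild-type mTEChi, against 7.64 and 8.28 in wild-type mTEClo (3.96, SE 0.248, limma adjusted p = 0.00102). Defa24 read 10.61, 10.23, 10.75 and 9.38 in wild-type mTEChi, against 6.25 and 6.84 in wild-type mTEClo (3.70, SE 0.384, adjusted p = 0.00527). Defa22 was higher by 3.65 (adjusted p = 0.00102), Defa39 by 2.70 (adjusted p = 0.0411), Defa41 by 2.22 (adjusted p = 0.0199) and Defa35 by 2.11 (adjusted p = 0.0105). The wild-type arrays of mTEChi and of mTEClo did not overlap in any of these genes.

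Defa33 (3.08, adjusted p = 0.0995), Defa26 (2.11, adjusted p = 0.128) and Defa40 (1.12, adjusted p = 0.276) read higher in mTEChi without passing the limma test. Defa34 had the smallest difference of the 10 (0.46, adjusted p = 0.593). The median over the members was 2.46, beside -0.10 over all genes. The call for Defa41 was lost without either Aire+/+ mTEChi array (adjusted p 0.0572 and 0.0630), and that for Defa39 without any 1 of the Aire+/+, Aire-/- and Brg1-/- mTEChi arrays (adjusted p 0.0629 to 0.104). The 4 mTEChi arrays lay above both mTEClo arrays in 9 of the 10 members, beside 11.4% of all genes. Both comparisons use the same wild-type mTEChi arrays, so the overlap of the 6 genes is in part built in. All mTEClo arrays carry the number 1. When only mTEChi arrays of that number were set against them, 9 members were at least 2-fold higher in mTEChi in each line, beside 5.33% of all genes in Aire+/+ and 5.65% in Brg1+/+. Of 7 neutrophil genes 2 were also higher in wild-type mTEChi, beside 1.93% of all genes. They were Camp (3.42, limma adjusted p = 0.00275) and Ly6g (3.32, adjusted p = 0.00903), and their part in the values was not tested. Of the 9 shared probe sets 7 were higher in mTEChi (3.67 for Defa17, Defa2 and Defa3, the largest), beside 1.48% of all probe sets.

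In mTEClo each genotype has 1 array, so the following values have no test. Defa21 read 4.39 in Aire-/- mTEClo, against 7.64 in Aire+/+ mTEClo, a difference of -3.25. Defa22 read 3.82 in Aire-/- mTEClo, against 7.46 in Aire+/+ mTEClo, a difference of -3.64. No other member was at least 2-fold lower in Aire-/- mTEClo (2 of 10, beside 1.57% of all genes). Defa24 differed by -0.74, Defa33 by -0.18 and Defa39 by -0.10. Defa35, Defa26, Defa34 and Defa41 read higher in Aire-/- mTEClo, by 0.34, 0.53, 0.62 and 0.81, and Defa40 differed by -0.02. In Aire+/+ mTEClo, Defa21 and Defa22 were thus read well above their level in Aire-/- cells of either fraction.

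Within Aire-/- cells no alpha-defensin read clearly higher in mTEChi. The difference between the mean of the 2 Aire-/- mTEChi arrays and the Aire-/- mTEClo array lay between -1.42 (Defa41) and 0.17 (Defa22), and 0 of 10 members were at least 2-fold higher in mTEChi, beside 4.09% of all genes. The Aire effect in mTEChi minus that in mTEClo was below 0 in all 10 members, with a median of -3.74 beside 0.02 over all genes. It was -4.67 for Defa21 (SE 0.496, limma adjusted p = 0.0966) and -4.67 for Defa41 (SE 0.694, adjusted p = 0.216). No member and 0 of 22154 genes passed this limma test of the difference between fractions, against 8 members and 547 genes at an unadjusted p under 0.05. The test assumes that the lone mTEClo arrays vary like the other groups. In Aire+/+ mTEClo, Defa33 (4.14), Defa41 (4.57) and Defa26 (5.14) already read below the array median of 5.25. Defa35 (6.06), Defa40 (5.82) and Defa39 (6.64) read there close to their own means in Aire-/- mTEChi (6.505, 5.825 and 6.300). Background limits how far such readings can fall, so a value below 0 is in part built in for all these genes. The count of 10 and the median include them. Defa34 (-0.54) differed by 0.08 in mTEChi and by 0.62 in mTEClo.

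**Figure D3:**
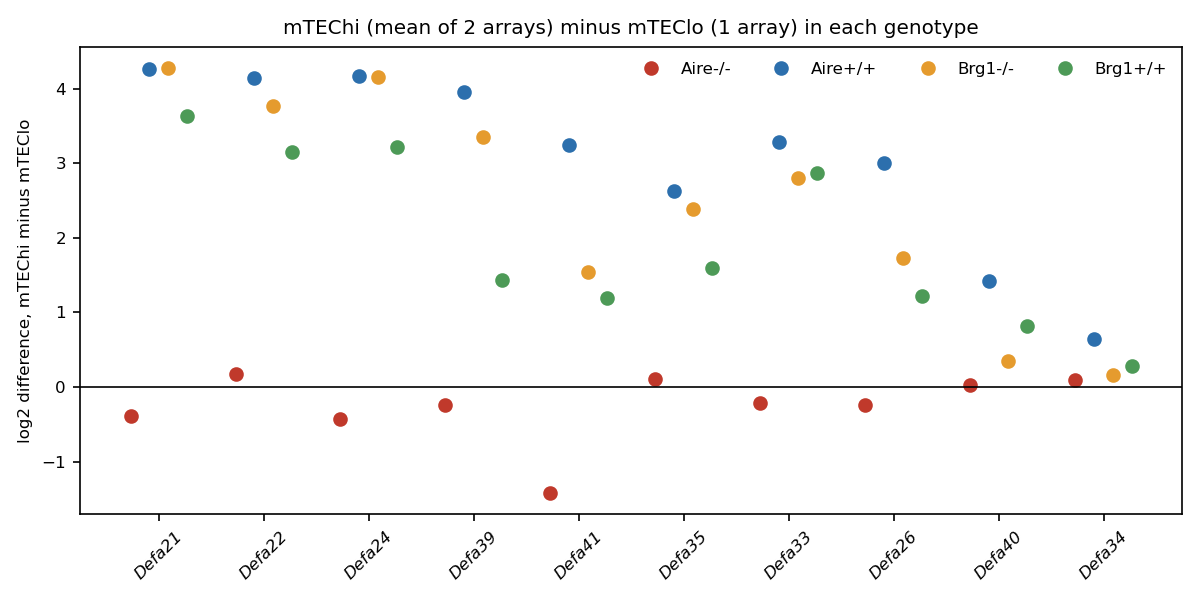
Log2 difference of mTEChi (mean of 2 arrays) minus mTEClo (1 array) on the y axis for each alpha-defensin (x axis), with 1 point per genotype. The Aire-/- points lie between -1.42 and 0.17, while for Defa21, Defa22 and Defa24 the points of the other 3 genotypes lie above 3.1.

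The third comparison asked which alpha-defensins depended on Brg1 in mTEChi. None of the 10 passed, beside 0.0% of all genes, and all 10 differences in group means were under 1 log2 unit. Defa22 read 10.81 and 10.93 in Brg1-/- mTEChi, against 11.71 and 11.58 in Brg1+/+ mTEChi (-0.78, SE 0.267, limma adjusted p = 1). Defa21 read 11.42 and 11.13 in Brg1-/- mTEChi, against 11.80 and 12.04 in Brg1+/+ mTEChi (-0.65, SE 0.286, adjusted p = 1). Both Brg1-/- arrays lay below both Brg1+/+ arrays in these members only (2 of 10, beside 9.62% of all genes lower in this way). The arrays of the other members overlapped. Defa24 read 9.77 and 9.68 in Brg1-/- mTEChi, inside the span of 10.75 and 9.38 in Brg1+/+ mTEChi.

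The other differences lay between -0.34 (Defa24 and Defa33) and 0.08 (Defa26). The median over the 10 members was -0.29, beside 0.00 over all genes. With limma 0 of 22154 genes (0.0%) were called for Brg1, against 301 genes and 1 member, Defa22, at an unadjusted p under 0.05. The direction differed between array numbers. All 10 members were lower in Brg1-/- mTEChi on the arrays numbered 1 (median -0.86), and 2 of 10, Defa21 and Defa22, on those numbered 2 (median 0.30). Replicate 1 read above replicate 2 in 9 of 10 members in Brg1+/+ mTEChi (median 1.11), and in 6 of 10 in Brg1-/- mTEChi (median 0.065). Shares over all genes were not computed for these counts. Thymocyte marker genes were brightest on 1 of these arrays, with a summed intensity over 6 genes of 453 and 1842 in Brg1-/- mTEChi, against 550 and 559 in Brg1+/+ mTEChi, and their part in the values was not tested.

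In mTEClo, again without a test, 5 of 10 members were at least 2-fold lower in Brg1-/- cells, beside 1.27% of all genes. Defa39 read 6.34 in Brg1-/- mTEClo, against 8.33 in Brg1+/+ mTEClo (-1.99). Defa22 differed by -1.40, Defa21 by -1.28, Defa24 by -1.27 and Defa35 by -1.05. Between the fractions of Brg1-/- cells, 8 of 10 members were at least 2-fold higher in mTEChi than in mTEClo, beside 4.78% of all genes. Whether this gap differs between the knockouts was not tested. The 5 rest on the lone Brg1+/+ mTEClo array, which read higher than the Aire+/+ mTEClo array in 8 of 10 members, by up to 1.69 (Defa39), 1.64 (Defa41), 1.05 (Defa26) and 1.04 (Defa22). Set against the Aire+/+ mTEClo array instead, none of the 5 was 2-fold lower in Brg1-/- mTEClo, with differences between -0.68 (Defa24) and -0.30 (Defa39). In mTEChi, Brg1+/+ minus Aire+/+ was 0.01 for Defa21 and 0.04 for Defa22 and lay between -0.83 (Defa39) and 0.04 over the 10 members. With limma 0 members and 0 genes passed there, against 0 members and 240 genes at an unadjusted p under 0.05.

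The knockouts were then set against each other in mTEChi by testing the Brg1 effect minus the Aire effect. Of the 10 members 3 passed, each with a positive value, beside 0.135% of all genes. The difference was 7.27 for Defa21 (SE 0.405, limma adjusted p = 0.00229), 6.84 for Defa22 (SE 0.377, adjusted p = 0.00229) and 5.0 for Defa24 (SE 0.626, adjusted p = 0.0482). The call for Defa24 was lost when any 1 of 7 of the 8 mTEChi arrays was left out, all but Brg1+/+ replicate 1 (adjusted p 0.0565 to 0.247). Defa39 (4.22, adjusted p = 0.219), Defa41 (3.53, adjusted p = 0.113), Defa33 (3.34, adjusted p = 1), Defa26 (2.79, adjusted p = 0.848), Defa35 (1.93, adjusted p = 0.356) and Defa40 (1.29, adjusted p = 1) did not pass. Defa34 had a value of -0.29 (adjusted p = 1). Of the shared probe sets 2 of 9 passed, those for Defa17, Defa2 and Defa3 (6.35) and for Defa33, Defa32 and Defa20 (4.79), beside 0.101% of all probe sets. Of 7 neutrophil genes 1 passed as well, Ly6g (5.23, limma adjusted p = 0.0478), and its part in the values was not tested. So did 1 of 14 goblet cell and enterocyte genes, Tff3 (3.21, limma adjusted p = 0.0404). Of 42 beta-defensin genes 2 passed, Defb19 (5.09, limma adjusted p = 0.0135) and Defb50 (5.10, adjusted p = 0.0200).

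**Figure D4:**
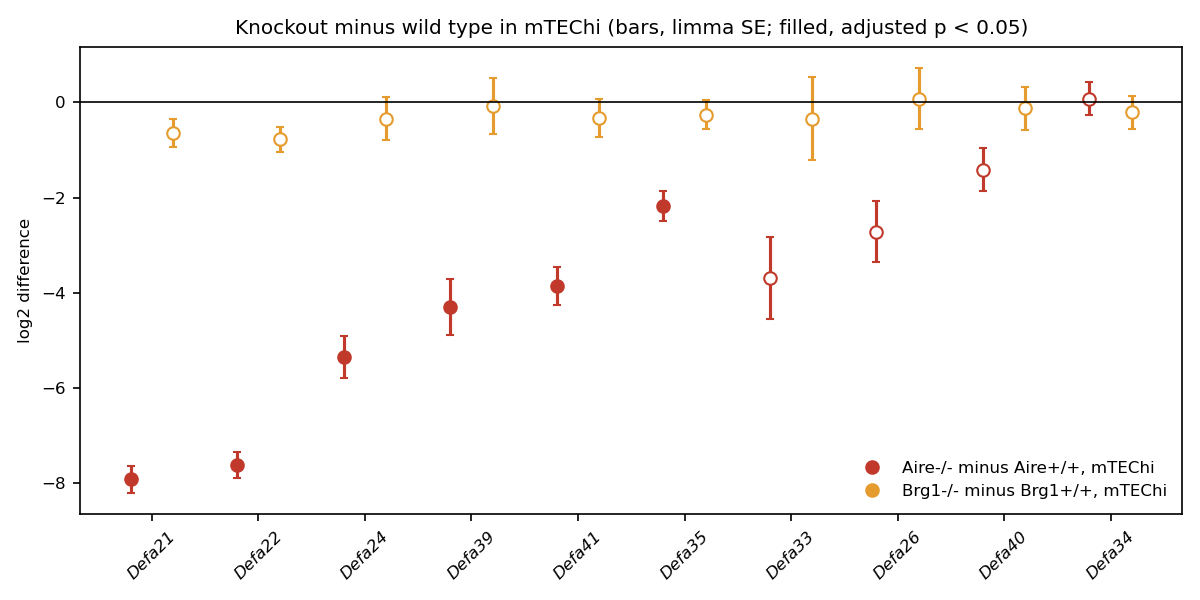
Log2 difference of knockout minus wild type in mTEChi (y axis) for each alpha-defensin (x axis), for Aire and for Brg1, with limma standard errors as bars and filled points where the adjusted p was under 0.05. For Aire 6 genes are filled, from -7.92 to -2.18, and for Brg1 all points lie between -0.78 and 0.08 and are open.

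The members varied together over the 12 arrays. The 36 pairs among the 9 genes other than Defa34 had Pearson correlations from 0.653 to 0.997 (median 0.905), and the 9 pairs with Defa34 had correlations from -0.181 to 0.429. These are descriptions over 12 arrays in 8 groups, and probe sets of near copies may share targets. On the chromosome Defa34 is flanked among numbered genes by Defa17, which is read only by shared probe sets, and by Defa39, which fell without Aire.

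Of 19 listed Paneth cell genes, all measured, 2 were called lower in Aire-/- mTEChi and 0 higher, beside 0.772% of all genes called lower. The median over the 19 was -0.43, beside 0.06 over all genes. Not all of the list read lower, since Wnt3 (0.79), Kit (0.38), Egf (0.26) and Nod2 (0.01) read higher in Aire-/- mTEChi without passing. Reg3b, a lectin that binds bacterial walls, read 8.78 and 8.79 in Aire-/- mTEChi, against 12.40 and 12.25 in Aire+/+ mTEChi (-3.54, SE 0.312, limma adjusted p = 0.00353). The mucosal pentraxin Mptx2 read 4.58 and 3.62 in Aire-/- mTEChi, against 8.01 and 7.38 in Aire+/+ mTEChi (-3.60, SE 0.585, adjusted p = 0.0483). Its relative Mptx1 (-3.87, adjusted p = 0.0690), the lectin Reg3a (-3.0, adjusted p = 0.103) and the colipase Clps (-2.11, adjusted p = 0.0508) did not pass.

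The Paneth cell lysozyme Lyz1 read 8.01 and 8.25 in Aire-/- mTEChi, against 9.35 and 9.28 in Aire+/+ mTEChi (-1.19, limma adjusted p = 0.229). The ribonuclease Ang4 differed by -1.20 (adjusted p = 0.210). Mmp7, which processes alpha-defensin precursors, read 9.39 and 10.33 in Aire-/- mTEChi, against 10.47 and 10.87 in Aire+/+ mTEChi (-0.81, adjusted p = 1). Reg3g (-0.50) and the intelectin Itln1 (-0.10) also did not pass (adjusted p = 1 each). None of the 19 passed for Brg1, where Reg3b differed by -0.56 and Mptx2 by -0.06. In the wild types 5 of the 19 were higher in mTEChi than in mTEClo, beside 1.93% of all genes. They were Mptx2 (3.19), Reg3a (3.08), Ang4 (2.98), Reg3b (2.59) and Lyz1 (1.64). The gap in Reg3b differed between the lines, since its single mTEClo arrays read 11.15 in Aire+/+ and 7.49 in Brg1+/+, and it read 7.11 in Aire-/- mTEClo.

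**Figure D5:**
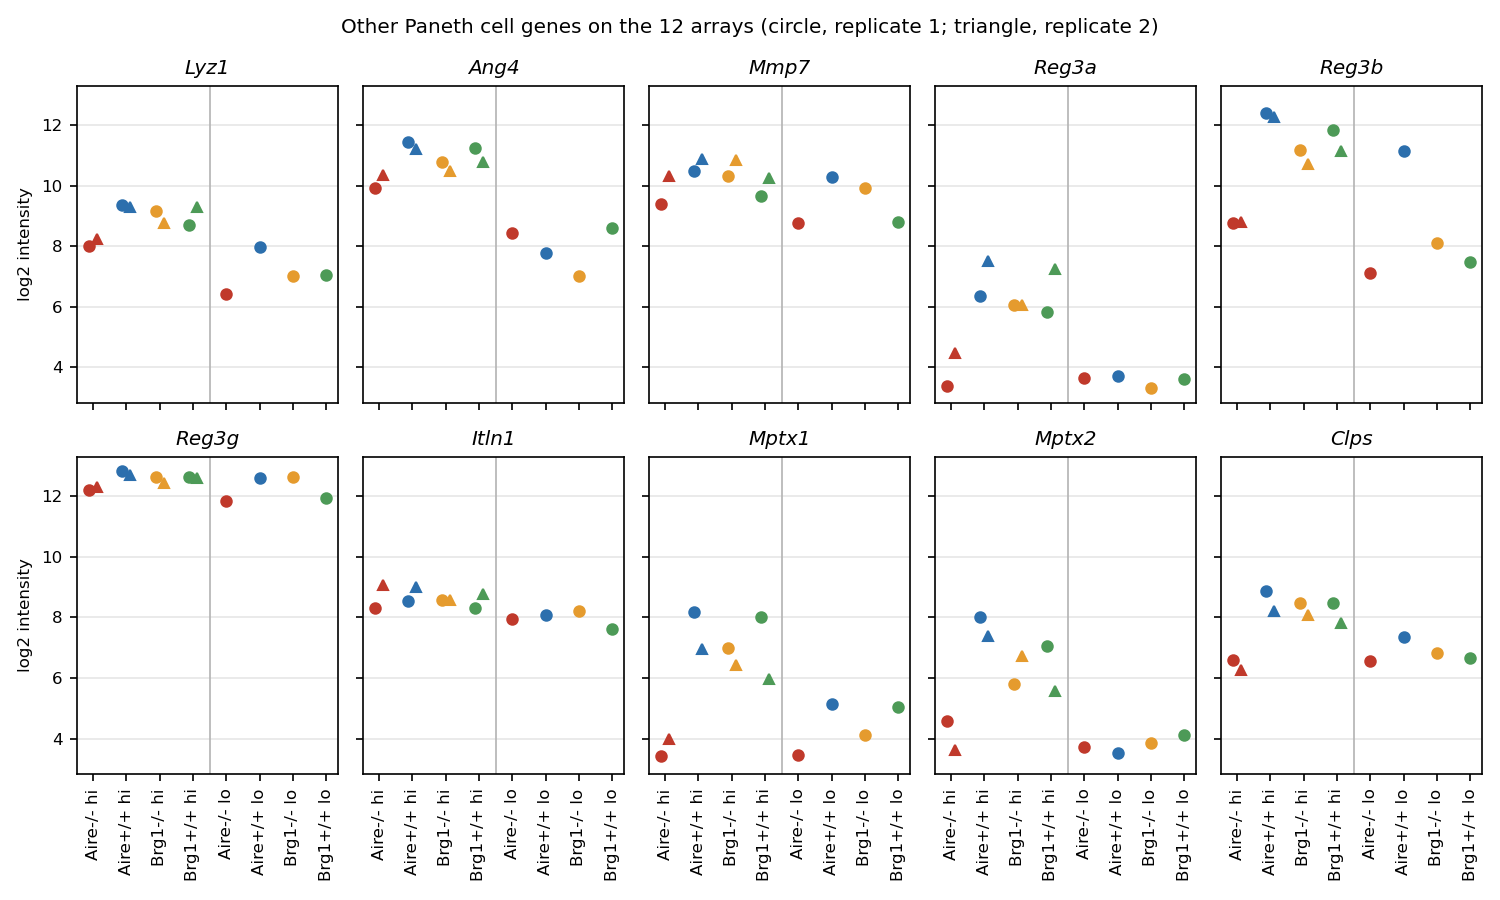
Log2 intensity of 10 of the 19 other Paneth cell genes (panels) on the 12 arrays, grouped along the x axis by genotype and cell type, each point 1 array. Wnt3, Kit, Egf and Nod2, which read higher in Aire-/- mTEChi without passing, are not drawn. Reg3b and Mptx2 lie lower in Aire-/- mTEChi than in Aire+/+ mTEChi and passed the test, while Itln1 and Reg3g differ by -0.10 and -0.50.

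None of 14 regulators of Paneth and other intestinal lineages passed in Aire-/- mTEChi (median 0.13). Among them, Atoh1, which specifies intestinal secretory cells, differed by -0.08, Sox9, which Paneth cells require, by 0.18, Gfi1 by 0.46 and Hnf4g by -0.77 (limma adjusted p = 0.966 for Hnf4g and 1 for the others). The intestinal homeobox gene Cdx1 was the only one of the 14 that was higher in wild-type mTEChi than in wild-type mTEClo (1.22, adjusted p = 0.0265), and it differed by 0.42 in Aire-/- mTEChi (adjusted p = 1). Of 14 goblet cell and enterocyte genes 3 fell without Aire, beside 0.772% of all genes called lower. They were the trefoil factor Tff3 (-2.87), the goblet cell lectin Zg16 (-2.80) and Fabp2, which binds fatty acids in enterocytes (-2.50). The median of that list was -0.69. None of 8 microfold cell genes passed (median -0.69). The pseudogene Defa-ps1 of the cluster read 5.34 and 7.26 in Aire-/- mTEChi, against 7.28 and 8.52 in Aire+/+ mTEChi (-1.60, adjusted p = 1), and neither it nor Defa-ps12 and Defa-ps13 passed.

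Markers of other cells that a sort could hold were read on the same arrays. Of 7 neutrophil genes 2 fell with the alpha-defensins in Aire-/- mTEChi, beside 0.772% of all genes called lower. They were Ly6g, a neutrophil surface protein gene (-5.33, limma adjusted p = 0.00333), and Camp, the cathelicidin gene (-2.45, adjusted p = 0.0260). The summed intensity of the 7 was 2938 to 4210 in Aire-/- mTEChi, against 9315 to 11703 in Aire+/+ mTEChi. S100a9 read 9.03 and 8.58 in Aire-/- mTEChi, against 11.40 and 10.76 in Aire+/+ mTEChi (-2.28, adjusted p = 0.0690), and Ngp (-1.15) and S100a8 (-1.11) were also lower on both Aire-/- arrays without passing. The median over the 7 genes was -1.15. The granule enzyme genes Elane and Mpo, which mark neutrophil precursors, did not pass. Elane read 5.95 and 5.38 in Aire-/- mTEChi, against 5.51 and 5.84 in Aire+/+ mTEChi. Mpo was lower on both Aire-/- arrays (-0.635), with 5.70 and 5.33 in Aire-/- mTEChi, against 6.08 and 6.22 in Aire+/+ mTEChi. The part of such cells in the alpha-defensin values was not tested. No gene of the lists for cortical TECs (6 measured), thymocytes (6), myeloid and B cells (7) or fibroblasts and endothelium (6) passed in the Aire, Brg1 or wild-type fraction comparison.

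Genes outside the family with the most similar pattern were found by Pearson correlation over the 12 arrays, among 2077 genes with a range of at least 2 log2 units, and are given without a test since they were chosen for that pattern. Closest to the mean of the 10 members were Defb45 (r = 0.990), the pancreatic polypeptide gene Ppy (0.990), the lipocalin Lcn11 (0.990), Fam162b (0.987), the beta-defensin Defb19 (0.985), the serine protease gene Prss29 (0.982), the neurotensin gene Nts (0.981) and the lens crystallin gene Crygc (0.981). Ppy, for example, read 6.69 and 6.20 in Aire-/- mTEChi, against 11.70 and 11.17 in Aire+/+ mTEChi. For Defa21 and Defa22 alone the closest were Dcpp1, a demilune cell protein gene (0.990 and 0.995), the cystatin gene Cst9 (0.982 and 0.983) and the tachykinin gene Tac2 (0.981 and 0.980). For Defa24 they were Defb45 (0.990), Ppy (0.990) and Prss29 (0.989). Dcpp1 read 4.70 in Aire-/- mTEClo, against 8.52 in Aire+/+ mTEClo, as Defa21 and Defa22 were also lower there.

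Beta-defensins, epithelial antimicrobial peptides with a different disulphide pattern, are the family closest in kind. Of 42 measured beta-defensin genes 8 fell in Aire-/- mTEChi (median over the 42 of -0.88), beside 0.772% of all genes called lower. Among the alpha-defensins 6 of 10 fell (median -3.77). In wild-type mTEChi 10 of the 42 were higher than in wild-type mTEClo, beside 1.93% of all genes. The largest beta-defensin falls were in Defb19 (-5.40), Defb50 (-5.37) and Defb8 (-4.99). No test between the families was made.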

How the data were processed

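RNA from sorted mTEChi and mTEClo was measured on 12 arrays. For each of 33732 probe sets the deposited values are linear intensities, 1 per array. Per the submitters' processing notes the tools were Transcriptome Analysis Console, Affymetrix Expression Console and RMA, with no versions or roles. Each deposited value equals 2 raised to a number with 2 decimals. Values were turned into log2 with no pseudocount or further normalization. No detection call was used, so background compresses differences of dim genes, and the number of arrays limits the precision.

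Of the probe sets 23491 had 1 symbol in the platform annotation, 1811 several and 8430 none. The brightest per gene left 22154 genes, of which 21968 had an Entrez identifier in RefSeq (GRCm38.p6), used for names, order and promoter sequences. Coordinates are those of the promoter table.

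Fits used R 4.3.3 and limma 3.58.1 (lmFit, eBayes) with 8 group means over 12 arrays, 4 residual and 3.46 prior degrees of freedom, Benjamini-Hochberg over all genes, two-sided, threshold 0.05. SE is limma's moderated standard error. Each lone mTEClo array was assumed to vary like the other groups. The limma fit of the Aire comparison in mTEChi was tested on simulated arrays. Their noise was independent, without the shared deviation of real arrays of the same number. Alternatives were array centring, quantile normalization, a replicate block, means of probe sets, a filter on dim genes, another variance prior, fits of only the groups compared and leaving out each mTEChi array. Testing every probe set on its own was added after the data were seen.

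Named were all members and the genes most like them by correlation among those searched. Listed Paneth cell genes that passed were named too, and up to 4 genes of each other list with the smallest adjusted p. Other list genes, probe sets and values singled out for mention were chosen after their values were seen. Members and lists were chosen with earlier results of these data known. The lists name mTECs, cortical TECs, thymocytes, myeloid and B cells, neutrophils, fibroblasts and endothelium, Paneth cells, intestinal regulators, goblet cells and enterocytes, microfold cells and alpha-defensin pseudogenes.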

Additional observations from a re-analysis of the deposited data

Results flagged for a closer look

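The effects of the knockouts in mTEChi differed from each other in 3 alpha-defensins, by limma's test of the Brg1 effect minus the Aire effect with 2 arrays in each of 4 groups. The value was 7.27 for Defa21, 6.84 for Defa22 and 5.0 for Defa24. In each of these genes both Aire-/- arrays read lower than both Aire+/+ arrays. Both Brg1-/- arrays read lower than both Brg1+/+ arrays in Defa21 and Defa22, by far less, and the Brg1 arrays of Defa24 overlapped. The groups have at most 2 arrays, so no array was tested for standing apart from its group.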

How the results depend on the processing

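The alternatives were 15 for each comparison, 8 of which leave out 1 mTEChi array. The alternative with means of probe sets leaves every member value unchanged, because each member has a single probe set of its own. It can change a member's call only through the other genes. Defa21, Defa22 and Defa24 passed for Aire in mTEChi under all 15, Defa41 under 12, Defa35 under 11 and Defa39 under 9. In the wild-type fractions Defa21, Defa22, Defa24 and Defa35 passed under all 15, Defa41 under 12 and Defa39 under 7. In the Brg1 effect minus the Aire effect Defa21 and Defa22 passed under all 15 and Defa24 under 7. Without single mTEChi arrays the count of members called for Aire lay between 3 and 6, that for the wild-type fractions between 4 and 7, and that for the Brg1 effect minus the Aire effect between 2 and 4, and it stayed at 0 for Brg1, for the wild types of both lines and for the Aire effect in mTEChi minus that in mTEClo. The small difference of Defa34 for Aire turned to -0.03 without Aire+/+ mTEChi replicate 2 and to -0.08 without Aire-/- mTEChi replicate 1, and reached 0.24 without Aire-/- mTEChi replicate 2. Over all genes the Aire count of 176 was 53 without Aire+/+ replicate 1, 67 without its replicate 2 and 70 without either Aire-/- replicate, and the wild-type fraction count of 567 was 248 in a fit of only the groups compared, where 4 members passed, and 307 to 470 without single arrays. The count of 30 for the Brg1 effect minus the Aire effect was 4 to 28 without single arrays. With arrays centred on their medians or quantile normalized the member counts stayed at 6, 6, 3, 0, 0 and 0. Arrays of the same number deviated together (r between 0.552 and 0.657 over genes, for pairs of mTEChi groups), but only 2 numbers exist, so the numbers do not establish a pairing. With the replicate block, 8 members passed for Aire, Defa33 (adjusted p = 0.00425) and Defa26 (adjusted p = 0.0214) added, 8 for the wild-type fractions and 0 for Brg1. The block count was 5 for the Brg1 effect minus the Aire effect and 4 for the Aire effect in mTEChi minus that in mTEClo (Defa21, Defa22, Defa24 and Defa41). Over all genes the block gave 531, 1534, 201 and 63 calls in these 4 comparisons. The cause of these changes was not tested. With every probe set tested on its own, an alternative chosen after seeing the data, 6 members passed for Aire, 5 for the wild-type fractions, 2 for the Brg1 effect minus the Aire effect and 0 in the other 3 comparisons. The counts of members at least 2-fold lower in mTEClo, 2 for Aire and 5 for Brg1, were the same with centred arrays. Means of probe sets could not change these counts.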

Other observations

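The replicate arrays of one group read some alpha-defensins differently. In Brg1+/+ mTEChi replicate 1 read higher than replicate 2 in 9 of 10 members, by 2.35 for Defa33, 1.85 for Defa39, 1.69 for Defa26, 1.37 for Defa24 and 1.25 for Defa41, while Defa21 differed by -0.24 and Defa22 by 0.13. In Aire+/+ mTEChi the same difference was 1.86 for Defa33, 1.49 for Defa26 and 1.24 for Defa40, with -0.44 for Defa21 and -0.41 for Defa22. In the knockout groups it lay between -0.74 and 0.75 for Brg1-/- and between -0.18 and 0.92 for Aire-/- mTEChi. These are values of single pairs of arrays, and their cause was not tested.

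The probe set for Defa28, Defa25 and Defa27 read 8.28 in Aire-/- mTEClo, against 6.86 in Aire+/+ mTEClo, and 5.72 and 5.60 in Aire-/- mTEChi, against 10.39 and 9.84 in Aire+/+ mTEChi. It was thus lower in Aire-/- cells of one fraction and higher in those of the other, with 1 array per genotype in mTEClo and no test there.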
